A study of Homo sapiens with 6 samples.

Results

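The 40 genes described here act in autophagy and in the lysosome, and were matched by symbol to the 26255 gene symbols listed for each of 6 RNA-seq libraries made from HCT116, an established line of human colorectal cancer cells. All 40 were found, and all 40 had a mean of at least 1 FPKM (fragments per kilobase of transcript, scaled to the mapped fragments of the library) over the 6 libraries, as did 12203 genes in total. The libraries fell into 3 groups of 2, namely parent cells, cells given the siRNA siLINC01534-1 and cells given the siRNA siLINC01534-2, both siRNAs being directed against the long noncoding RNA LINC01534. HCT116 was the only cell line in these libraries, and no further agent is given in the labels. The control was the parent cell, which is not described as transfected, and libraries of cells given a negative control siRNA were not analysed here, so transfection itself and the intended target cannot be told apart in any comparison with parent. The members comprised 22 genes of the autophagy machinery, 16 lysosomal genes and the transcription factors TFEB and TFE3.

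Macroautophagy encloses cytoplasmic cargo in a membrane vesicle, the autophagosome, and delivers it to the lysosome for digestion. The ULK1 kinase complex starts the process, a lipid kinase complex around BECN1 marks the membrane, and a ubiquitin-like conjugation system attaches proteins of the LC3 and GABARAP family to it, where cargo receptors such as SQSTM1 dock. Lysosomal hydrolases then degrade the content in a lumen acidified by the vacuolar proton pump, and TFEB and TFE3 are known to switch on many lysosomal and autophagy genes through an E-box element in their promoters. In cells under endoplasmic reticulum stress, ATF4 and CHOP are known to raise transcription of a part of the autophagy genes.

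From the steps between the lowest FPKM values, the depth was estimated at 8640000 to 10400000 reads per library, so that 1 FPKM over a transcript of 2000 nt stood for about 17.3 reads in the shallowest library. The targeted RNA was examined first: LINC01534 was listed at 0.285 and 0.571 FPKM in parent, at 0 and 0.283 with siLINC01534-1, and at 0.660 and 0.551 with siLINC01534-2. All 6 values were under 1 FPKM and rest on few reads, a limit that holds for both siRNAs. No decrease against parent was seen in the libraries labelled siLINC01534-2, and whether depth is the reason was not tested. The groups are named by their labels. The epithelial markers EPCAM, KRT8, KRT18, CDH1 and CDX2 were detected in every library, with CDX2 the lowest of them at 6.89 to 9.89 FPKM, whereas VIL1 was listed at 0 in 5 of 6. PTPRC, COL1A2 and PECAM1, which mark leukocytes, fibroblasts and endothelium, did not exceed 0.0463 FPKM. The fibroblast collagen COL1A1 was at 3.02 and 3.05 FPKM in parent and between 3.79 and 5.79 in the siLINC01534 libraries, and its part in the results was not tested. FPKM are shares of a library, so more RNA of a gene per cell and less RNA of other genes cannot be told apart, nor can fewer cells with a gene's RNA and less RNA per cell.

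To ask whether the autophagy and lysosome genes followed the siRNAs, log2(FPKM + 1) was compared by limma over all 12203 genes, with the mean of both siRNAs against parent as the main comparison. Genes were called at 0.05 after Benjamini-Hochberg adjustment. Of the 40 members, 21 rose for the mean of both siRNAs, 3 fell and 16 did not pass. Among all genes tested, 37.2% passed, 17.1% higher and 20.1% lower. The median log2 change of the 40 members was 0.22, against -0.0068 over all genes. In 25 members all 4 siLINC01534 libraries lay above both parent libraries, as they did in 19.0% of all genes, and in 4 members all lay below, against 19.3% of all genes. Members past 2-fold, by the ratio of mean FPKM, were SQSTM1, MAP1LC3B, GABARAPL1 and WIPI1, all higher. Among all genes 2.78% passed 2-fold in either direction and 2.09% were higher. SQSTM1 and WIPI1 also passed 2-fold with each siRNA alone. MAP1LC3B did not with siLINC01534-1 (ratio 1.86), nor did GABARAPL1 with siLINC01534-2 (ratio 1.88). The p-values measure the spread between 2 libraries of a group, which may be technical.

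Some of the 24 calls were lost with a library left out, which leaves 1 library in its group. How often the calls of all genes held was not computed, so this is no result about the members. The following calls held with each library left out in turn, all higher but that of ATP6V1A. They were those of SQSTM1, NBR1, MAP1LC3B, GABARAP, GABARAPL1, ULK1, ATG13, WIPI1, ATG4A, CTSA, CTSD, CTSL, GLA, GAA, LAMP2 and ATP6V1A. With the 4 siLINC01534 libraries pooled, which counts any siRNA difference as error, 5 members passed, against 2.96% of all genes. These were SQSTM1 (adjusted p = 5.3e-04), WIPI1 (adjusted p = 0.0025), MAP1LC3B (adjusted p = 0.012), CTSL (adjusted p = 0.018) and NBR1 (adjusted p = 0.0305).

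**Figure D1:**
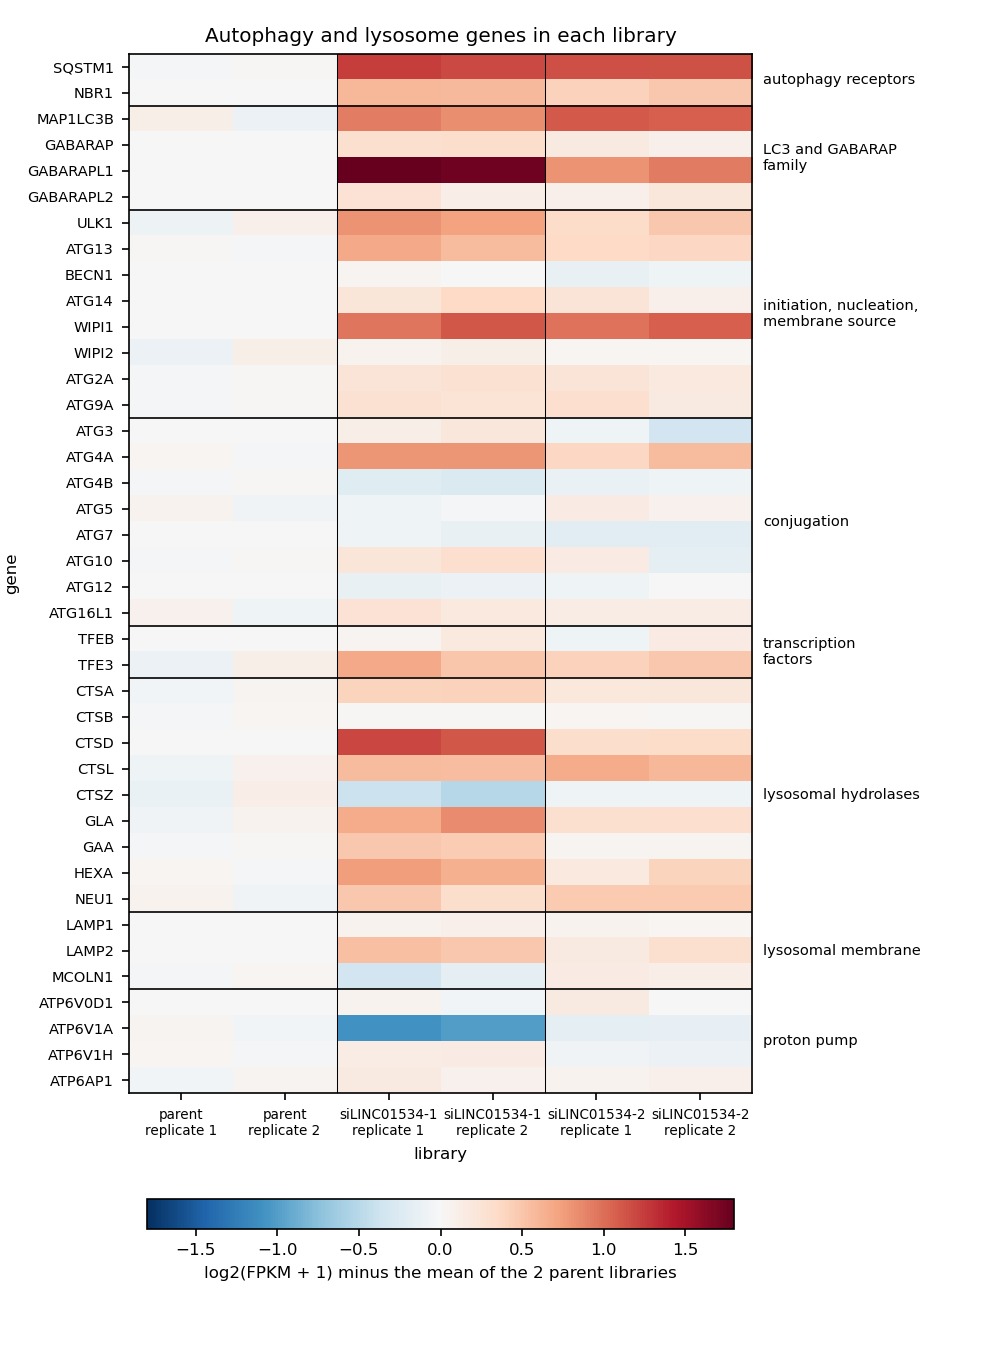
Heat map of the 40 members (rows, by class) in the 6 libraries (columns); colour gives log2(FPKM + 1) minus the mean of the 2 parent libraries. The strongest reds are GABARAPL1, SQSTM1, WIPI1, MAP1LC3B and, with siLINC01534-1, CTSD, and the strongest blue is ATP6V1A with siLINC01534-1.

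Both cargo receptors rose. SQSTM1 (chromosome 5 of GRCh37, 179233398 to 179265078, plus strand) carries ubiquitinated proteins into the autophagosome and is itself degraded there. Its FPKM was 109.9 and 114 for parent, against 266 and 256 for siLINC01534-1 and 252 and 248.8 for siLINC01534-2. The siLINC01534 libraries lay close together and far above the parent libraries, and limma gave a log2 change of 1.19 (standard error 0.031, adjusted p = 5.3e-05), with a ratio of mean FPKM of 2.29. Over 21.0% of its exon bases SQSTM1 overlaps MRNIP on the opposite strand. NBR1 (chromosome 17, 41322498 to 41363708, plus strand), a receptor of similar architecture, was at 18.2 and 17.8 (parent), 27.7 and 27.4 (siLINC01534-1) and 24.3 and 25.7 (siLINC01534-2). It rose by 0.52 on the log2 scale (standard error 0.039, adjusted p = 7.0e-04), a smaller step than that of SQSTM1, again without overlap between the groups.

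Of the LC3 and GABARAP family, whose members are anchored in the autophagosomal membrane, 3 of 4 rose. MAP1LC3B (chromosome 16, 87417559 to 87438385, plus strand), which encodes the common marker protein LC3B, had an FPKM of 32.9 and 28.4 in the parent libraries, 58.6 and 55.4 under siLINC01534-1 and 66.8 and 65.8 under siLINC01534-2. Its log2 change was 0.98 (standard error 0.064, adjusted p = 4.9e-04). Its near-identical copy MAP1LC3B2, with which reads may be shared, did not exceed 1.42 FPKM.
GABARAPL1 (chromosome 12, 10365057 to 10375727, plus strand) had the largest change of all 40 members. Its FPKM was 16.3 and 16.2 for parent, against 58.6 and 57.3 for siLINC01534-1 and 29.1 and 32.1 for siLINC01534-2. The parent libraries were nearly equal, siLINC01534-2 lay at a middle level and siLINC01534-1 at the top, and the log2 change for both siRNAs was 1.32 (standard error 0.047, adjusted p = 1.1e-04). GABARAP itself, the most abundant member in parent, was at 131 and 130.3 (parent), 159 and 163 (siLINC01534-1) and 146 and 139 (siLINC01534-2), a change of 0.21 (adjusted p = 0.0059). GABARAPL2 was at 53.4 and 54.0 in the parent libraries, 64.2 and 58.5 under siLINC01534-1 and 57.1 and 61.7 under siLINC01534-2, and although all 4 siLINC01534 libraries lay above parent, its difference of 0.17 did not pass (adjusted p = 0.056). The family thus spanned log2 changes from 0.17 to 1.32, and the larger ones were those of GABARAPL1 and MAP1LC3B. Exons of GABARAP share 35.4% of their bases with another annotated gene on the same strand, so its value is less certain.

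Among the 8 genes of initiation, nucleation and membrane supply, 6 rose and 0 fell in the limma fit, also at an unadjusted p under 0.05, with a median of 0.24. WIPI1 (chromosome 17, 66417089 to 66453654, minus strand), which binds the phosphoinositide made by the BECN1 complex, went from 7.77 and 7.79 FPKM in parent to 16.1 and 18.1 with siLINC01534-1 and 16.3 and 17.4 with siLINC01534-2. This was a log2 change of 1.03 (standard error 0.061, adjusted p = 4.0e-04), of the same order with each siRNA. Its exons overlap those of ARSG on the opposite strand over 24.4% of their bases, and although the libraries were made with a stranded kit, whether the counting used strand is not given in the sources used here. The related gene WIPI2, at 16.05 and 18.6 for parent, against 18.1 and 18.7 for siLINC01534-1 and 17.7 and 17.8 for siLINC01534-2, did not pass (log2 difference 0.059, adjusted p = 0.50), and its groups overlapped.
The kinase gene ULK1 (chromosome 12, 132379167 to 132407695, plus strand) was low in parent, with an FPKM of 3.76 and 4.44 (parent), 7.90 and 7.39 (siLINC01534-1) and 5.39 and 6.12 (siLINC01534-2). Every siLINC01534 library exceeded both parent values, and it rose by 0.58 (standard error 0.084, adjusted p = 0.0050). ATG13, a subunit of the same kinase complex, was at 10.1 and 9.72 in the parent libraries, 16.5 and 15.2 under siLINC01534-1 and 13.04 and 13.1 under siLINC01534-2, and rose by 0.50 (standard error 0.048, adjusted p = 0.0014). In both genes the siLINC01534-1 libraries lay above those of siLINC01534-2.
BECN1, the scaffold of the lipid kinase complex, did not pass. Its FPKM was 43.2 and 42.9 for parent, against 44.7 and 43.1 for siLINC01534-1 and 39.1 and 40.7 for siLINC01534-2, the groups overlapped, and the difference was -0.040 (95% interval -0.13 to 0.047, adjusted p = 0.41). ATG14, which directs that complex to autophagy and overlaps FBXO34 on the opposite strand over 20.8% of its exon bases, was at 6.18 and 6.12 (parent), 7.35 and 8.14 (siLINC01534-1) and 7.42 and 6.61 (siLINC01534-2), with a change of 0.23 (adjusted p = 0.049). That call was lost without any one of the 6 libraries (adjusted p from 0.052 to 0.195, log2 change from 0.19 to 0.26). ATG2A, a lipid transfer protein, was at 4.39 and 4.59 in the parent libraries, 5.44 and 5.61 under siLINC01534-1 and 5.48 and 5.22 under siLINC01534-2. ATG9A, a scramblase of the vesicles that seed the membrane, was at 25.2 and 25.7 for parent, against 30.9 and 30.4 for siLINC01534-1 and 31.5 and 28.6 for siLINC01534-2. Both rose slightly, ATG2A by 0.23 (adjusted p = 0.026) and ATG9A by 0.24 (adjusted p = 0.013). The call of ATG2A was lost without either parent library, either siLINC01534-1 library or siLINC01534-2 replicate 1 (adjusted p from 0.057 to 0.125, log2 change from 0.20 to 0.26). That of ATG9A was lost without either parent library (adjusted p = 0.085 and 0.070, with log2 changes of 0.23 and 0.26), and 38.8% of its exon bases are shared with another annotated gene on the same strand.

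Of the 8 conjugation genes, which process LC3 and attach it to lipid, 1 rose, 1 fell and 6 did not pass, and their median log2 change was 0.0040. ATG4A (chromosome X, 107334898 to 107397901, plus strand), a protease that trims LC3 and GABARAP proteins, was the one that rose. Its FPKM was 6.71 and 6.40 (parent), 12.2 and 12.1 (siLINC01534-1) and 8.81 and 10.2 (siLINC01534-2), a change of 0.63 (standard error 0.065, adjusted p = 0.0018). Its paralogue ATG4B, the more abundant of the pair, went the other way, at 27.8 and 28.8 in the parent libraries, 24.3 and 23.5 under siLINC01534-1 and 25.9 and 26.8 under siLINC01534-2. All siLINC01534 libraries were below parent, with a change of -0.17 (standard error 0.038, adjusted p = 0.021). The call of ATG4B was lost without either parent library, siLINC01534-1 replicate 2 or siLINC01534-2 replicate 1 (adjusted p from 0.053 to 0.12, log2 change from -0.19 to -0.14).
ATG5, which is joined to ATG12 to form the enzyme complex that lipidates LC3, was at 16.4 and 15.0 for parent, against 14.9 and 15.4 for siLINC01534-1 and 17.5 and 16.6 for siLINC01534-2. ATG7, the activating enzyme at the head of the system, was at 4.98 and 4.91 (parent), 4.61 and 4.44 (siLINC01534-1) and 4.23 and 4.14 (siLINC01534-2). Values of ATG16L1, which places the complex on the membrane, were 19.7 and 17.6 in the parent libraries, 22.5 and 21.1 under siLINC01534-1 and 20.6 and 20.6 under siLINC01534-2. None of them passed, at 0.033 for ATG5 (adjusted p = 0.66), -0.15 for ATG7 (adjusted p = 0.086) and 0.18 for ATG16L1 (adjusted p = 0.058). The libraries of ATG7 did not overlap, with all 4 below parent, and it passed on quantile normalization (log2 change -0.19, adjusted p = 0.0497) and in a fit without a trend on the mean (log2 change -0.15, adjusted p = 0.037). ATG16L1, with all 4 above, passed without parent replicate 1 (log2 change 0.25, adjusted p = 0.048) and with genes of at least 5 FPKM alone (log2 change 0.18, adjusted p = 0.045).
ATG3, the conjugating enzyme, was at 48.1 and 47.2 for parent, against 51.6 and 55.3 for siLINC01534-1 and 45.1 and 37.4 for siLINC01534-2, so that siLINC01534-1 lay above and siLINC01534-2 below parent and the mean of both was -0.025 (adjusted p = 0.83). All 4 siLINC01534 libraries of ATG12 also lay below parent. For ATG10 and ATG12 the differences were 0.12 and -0.083 (adjusted p = 0.41 and 0.12). With ATG10 at 2.30 to 3.58 FPKM and ATG12 at 27.3 to 30.3 FPKM over all libraries, neither passed.

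**Figure D2:**
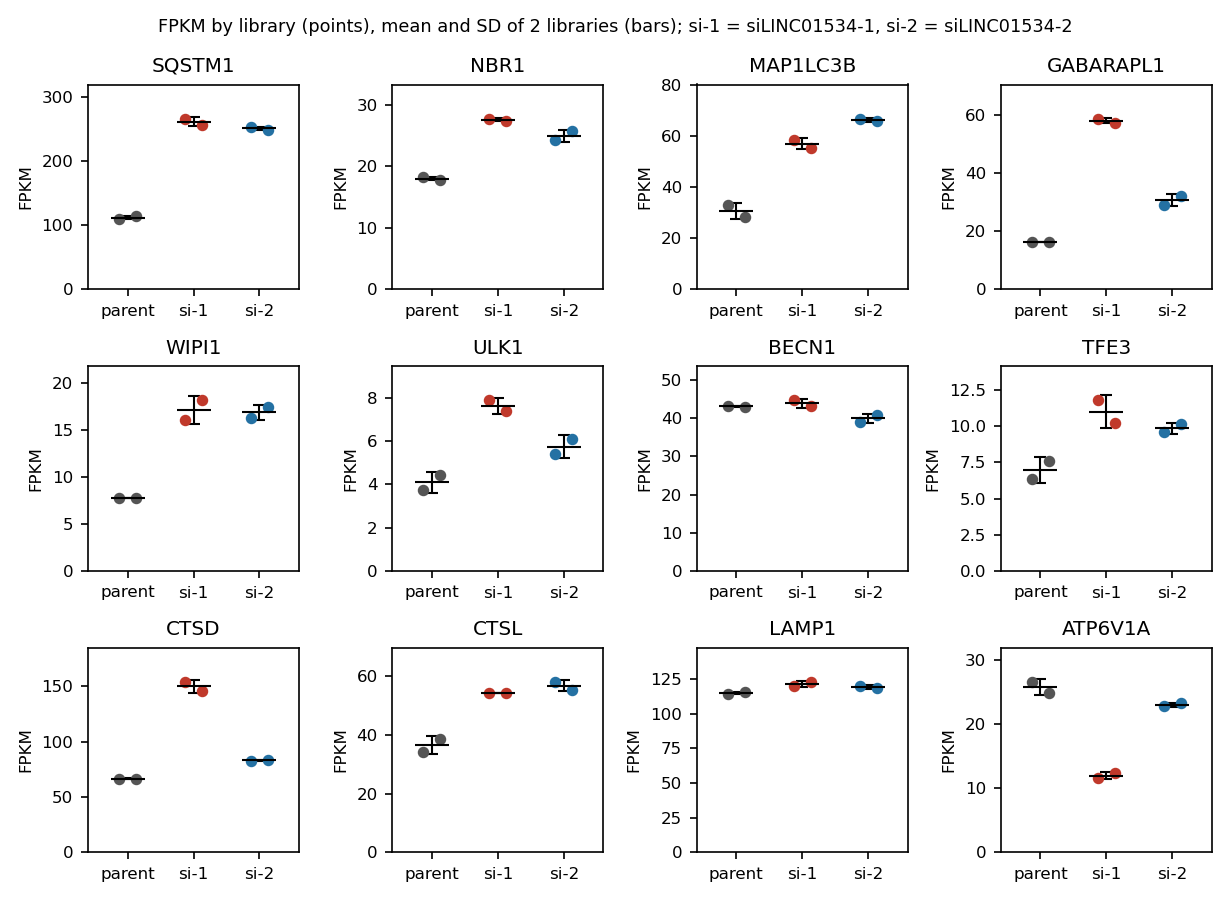
FPKM (vertical axes, from 0) of 12 members in parent cells and with siLINC01534-1 (si-1) and siLINC01534-2 (si-2); points are libraries, bars the mean and SD of 2 libraries. SQSTM1 and WIPI1 reach similar levels with both siRNAs, GABARAPL1 and CTSD are highest with siLINC01534-1, BECN1 and LAMP1 stay near parent, and ATP6V1A is low with siLINC01534-1.

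Of the transcription factors TFEB and TFE3, 1 rose. TFEB was the lowest of the 40 members, with an FPKM of 1.72 and 1.75 (parent), 1.84 and 2.09 (siLINC01534-1) and 1.60 and 2.02 (siLINC01534-2), and the groups overlapped (log2 difference 0.075, 95% interval -0.18 to 0.33, adjusted p = 0.60). TFE3 (chromosome X, 48886237 to 48900936, minus strand) was at 6.37 and 7.598 in the parent libraries, 11.8 and 10.2 under siLINC01534-1 and 9.59 and 10.1 under siLINC01534-2. It rose by 0.52 (standard error 0.089, adjusted p = 0.0084), with all 4 siLINC01534 libraries above parent, but the call was lost without parent replicate 1 (log2 change 0.41, adjusted p = 0.057). These are RNA levels, and the activity of TFEB and TFE3 is known to be set mainly by phosphorylation and entry into the nucleus, which was not measured here.

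Among the 9 genes of lysosomal hydrolases, CTSA included, 7 rose, 1 fell and 1 did not pass, with a median of 0.44, the highest of the lysosomal classes. CTSD (chromosome 11, 1773982 to 1785803, minus strand) encodes the aspartic protease cathepsin D. Its FPKM was 66.6 and 66.1 for parent, against 154 and 146 for siLINC01534-1 and 82.5 and 83.4 for siLINC01534-2, so that siLINC01534-1 stood far above the other groups. For both siRNAs the log2 change was 0.74 (standard error 0.033, adjusted p = 1.9e-04). Exons of CTSD share 22.9% of their bases with a further annotated gene on the same strand, and 23.4% with PRADX on the opposite strand.
CTSL (chromosome 9, 90338966 to 90346384, plus strand), a cysteine protease, was at 34.2 and 38.6 (parent), 54.3 and 54.1 (siLINC01534-1) and 58.0 and 55.3 (siLINC01534-2). Here the siRNAs gave nearly the same level, and the gene rose by 0.60 (standard error 0.055, adjusted p = 0.0012). CTSB, another cysteine protease of the same lumen, was at 60.2 and 63.2 in the parent libraries, 62.4 and 62.7 under siLINC01534-1 and 62.9 and 62.5 under siLINC01534-2, with a difference of 0.022 (95% interval -0.058 to 0.10, adjusted p = 0.62). Its 6 libraries lay within a narrow band and overlapped.
CTSZ, a carboxypeptidase, fell. Its FPKM was 74.1 and 86.9 for parent, against 61.2 and 55.9 for siLINC01534-1 and 75.97 and 75.8 for siLINC01534-2, and the parent libraries were further apart than those of any other group, with the siLINC01534-2 libraries between them. The change of -0.27 (standard error 0.072, adjusted p = 0.037) is the only one of the 24 with overlapping groups, and it was lost without parent replicate 2 or any one of the siLINC01534 libraries (adjusted p from 0.061 to 0.155, log2 change from -0.30 to -0.15). Exons of CTSZ overlap those of NELFCD on the opposite strand over 31.65% of their bases.
The glycosidase genes GLA, GAA, HEXA and NEU1 rose. GLA, the alpha-galactosidase deficient in Fabry disease, was at 32.3 and 35.4 (parent), 54.2 and 61.5 (siLINC01534-1) and 41.6 and 42.1 (siLINC01534-2). GAA, the acid alpha-glucosidase deficient in Pompe disease, was at 19.8 and 20.4 in the parent libraries, 28.7 and 28.0 under siLINC01534-1 and 20.8 and 20.7 under siLINC01534-2. HEXA, the alpha subunit of beta-hexosaminidase, was at 12.7 and 11.95 for parent, against 21.4 and 19.7 for siLINC01534-1 and 14.0 and 16.5 for siLINC01534-2. In each, both siLINC01534-1 libraries were above both siLINC01534-2 libraries. The changes for both siRNAs were 0.53 for GLA (adjusted p = 0.0030), 0.26 for GAA (adjusted p = 0.0041) and 0.49 for HEXA (adjusted p = 0.0067). NEU1, a sialidase, was at 19.1 and 17.2 (parent), 25.8 and 22.7 (siLINC01534-1) and 25.6 and 25.6 (siLINC01534-2). CTSA, which protects NEU1 and beta-galactosidase in a common complex, was at 45.6 and 49.1 in the parent libraries, 62.6 and 63.1 under siLINC01534-1 and 54.1 and 54.6 under siLINC01534-2. NEU1 rose by 0.44 (adjusted p = 0.0059) and CTSA by 0.30 (adjusted p = 0.0035). Without parent replicate 2 the calls of HEXA (log2 change 0.45, adjusted p = 0.063) and NEU1 (log2 change 0.37, adjusted p = 0.052) were lost.

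The lysosomal membrane genes gave 1 increase among 3. LAMP1, one of the abundant glycoproteins that line the membrane, was at 114 and 116 for parent, against 120.0 and 123 for siLINC01534-1 and 120.1 and 118 for siLINC01534-2. The siLINC01534 libraries all lay above parent, by so little that the difference of 0.065 did not pass (95% interval -0.0040 to 0.13, adjusted p = 0.12). LAMP1 passed on quantile normalization, at 0.14 (adjusted p = 0.014). LAMP2 (chromosome X, 119560003 to 119603220, minus strand), its paralogue, which is also needed for chaperone-mediated autophagy, was at 15.2 and 15.0 (parent), 22.4 and 21.5 (siLINC01534-1) and 17.0 and 18.6 (siLINC01534-2). It rose by 0.36 (standard error 0.049, adjusted p = 0.0041). MCOLN1, a calcium channel of the lysosomal membrane, was at 8.78 and 9.33 in the parent libraries, 6.95 and 7.95 under siLINC01534-1 and 10.1 and 9.96 under siLINC01534-2. The siLINC01534-1 libraries were below and the siLINC01534-2 libraries above parent, and the mean difference was -0.059 (adjusted p = 0.51).

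Of 4 proton pump genes 1 fell and 0 rose in the limma fit, and 0 rose at an unadjusted p under 0.05. ATP6V1A (chromosome 3, 113465617 to 113530903, plus strand) encodes the catalytic subunit of the pump, and its FPKM was 26.6 and 24.8 for parent, against 11.5 and 12.3 for siLINC01534-1 and 22.7 and 23.2 for siLINC01534-2. It fell by 0.60 on the log2 scale (standard error 0.047, adjusted p = 7.9e-04), the largest decrease among the members, and the siLINC01534-1 libraries were the lowest. ATP6V1H, a regulatory subunit of the same sector, was at 19.9 and 19.0 (parent), 21.5 and 21.7 (siLINC01534-1) and 18.6 and 18.0 (siLINC01534-2), with a difference of 0.030 (adjusted p = 0.58). ATP6V0D1, which joins the membrane and cytosolic sectors, ranged from 46.6 to 53.7 FPKM, and the accessory subunit ATP6AP1 from 49.0 to 56.9 FPKM. Neither passed, at 0.045 (adjusted p = 0.56) and 0.098 (adjusted p = 0.14). Over the 4 genes the differences ran from -0.60 to 0.098.

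Because TFEB and TFE3 act through an E-box, the promoters of the members were searched for CACGTG, which reads the same on both strands. RefSeq promoters (GRCh38.p14, 250 bases before to 50 bases after the start site) were matched by symbol for 35 members. Those of CTSB, ATP6V1A, ATP6V1H, HEXA and LAMP2 were not analysed here. CACGTG occurred in 9 of 35 member promoters (25.7%), in 8.77% of the promoters of 27305 genes and in 12.9% of those of 9009 tested genes. Of the 9 genes, 7 were lysosomal and 2, ATG3 and ATG14, belonged to the autophagy machinery. The longer palindrome TCACGTGA, which contains CACGTG, occurred in 6 member promoters (17.1%), against 1.18% of all promoters and 2.31% of those of tested genes. Windows are shown for CTSA and hydrolase genes that rose, followed by lysosomal genes that did not pass; capitals mark CACGTG, and the strand is that of the gene.
CTSD (chr11:1763957-1763986, minus strand): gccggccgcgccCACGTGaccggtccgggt
GAA (chr17:80101493-80101522, plus strand): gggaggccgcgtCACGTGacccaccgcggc
GAA (chr17:80101538-80101567, plus strand): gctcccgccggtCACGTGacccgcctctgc
CTSA (chr20:45891298-45891327, plus strand): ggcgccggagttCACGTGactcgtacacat
NEU1 (chr6:31862930-31862959, minus strand): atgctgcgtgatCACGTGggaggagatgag
LAMP1 (chr13:113297199-113297228, plus strand): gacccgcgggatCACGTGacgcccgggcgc
LAMP1 (chr13:113297226-113297255, plus strand): cgcggcgcagctCACGTGacaagcgctgcc
MCOLN1 (chr19:7522571-7522600, plus strand): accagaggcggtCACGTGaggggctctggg
MCOLN1 (chr19:7522598-7522627, plus strand): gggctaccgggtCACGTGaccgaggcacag
ATP6V0D1 (chr16:67481199-67481228, minus strand): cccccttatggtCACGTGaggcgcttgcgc
LAMP1 held 6 copies of CACGTG, the most of any member, GAA, MCOLN1, CTSA and ATG3 held 2 each, and CTSD, NEU1, ATG14 and ATP6V0D1 held 1. Among the 9 genes with the motif 5 rose and the limma fit called 0 lower (0 also at an unadjusted p under 0.05), and their median log2 change was 0.23, while among the 26 without it 14 rose and the median was 0.22. Of the 6 genes with the longer TCACGTGA 2 rose, with a median of 0.055. Of the 29 without it 17 rose, with a median of 0.23. The reason was not tested. SQSTM1, MAP1LC3B, GABARAPL1 and WIPI1, the members past 2-fold, held no CACGTG in this window. The element TGATGNAAT, which is bound by ATF4 with C/EBP proteins, was found on either strand in 0 of 35 member promoters, in 1.22% of all promoters and in 0.599% of those of tested genes, shares at which 0 of 35 says nothing about the members. A motif match is a description of letters and not of binding.

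Between the autophagy machinery and the lysosome, the medians for both siRNAs were close, 0.22 over 22 genes and 0.18 over 16 genes. The autophagy genes had 12 increases and 1 decrease, the lysosomal genes 8 increases and 2 decreases. The changes ran from -0.17 to 1.32 on the autophagy side and from -0.60 to 0.74 on the lysosomal side, so that the spread within each was larger than the gap between them. Receptors were at a median of 0.85, the LC3 and GABARAP family at 0.60 and the hydrolases at 0.44. Initiation genes were at 0.24, lysosomal membrane genes at 0.065, pump genes at 0.038 and conjugation genes at 0.0040. In the single libraries the median of the autophagy side relative to the parent mean was 0.25 and 0.28 with siLINC01534-1 and 0.20 and 0.15 with siLINC01534-2, and that of the lysosome side 0.28 and 0.23 with siLINC01534-1 and 0.15 and 0.11 with siLINC01534-2. Both sides were thus above the parent libraries, which ranged from -0.016 to 0.016, in all 4 siLINC01534 libraries. No test was made between the sides, since the members were chosen with results of these data known.

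Each siRNA was then compared with parent separately; the comparisons share the parent libraries. With siLINC01534-1, 24 members were higher and 4 lower, while 46.3% of all genes passed, 21.8% higher and 24.5% lower. The decreases were in ATP6V1A (-1.05, adjusted p = 1.5e-04), CTSZ (-0.45, adjusted p = 0.0084), MCOLN1 (-0.25, adjusted p = 0.039) and ATG4B (-0.23, adjusted p = 0.0085). Some of the 28 calls were lost with a library left out, and among the decreases only that of ATP6V1A held in every case. In the libraries labelled siLINC01534-2, 16 members were higher and 0 lower at this threshold, while 22.8% of all genes passed, 11.1% higher and 11.8% lower. GABARAP, ATG14, ATG2A, GAA, HEXA, ATG4B, CTSZ and ATP6V1A, called for the mean of both siRNAs, did not pass here (adjusted p from 0.068 for GABARAP to 0.53 for CTSZ in limma). Fewer members passed with any 1 library left out, and the share of all genes that passed fell in each of these fits as well. The calls of SQSTM1 (1.16), WIPI1 (1.02), MAP1LC3B (1.09), GABARAPL1 (0.87), CTSL (0.63), NBR1 (0.45) and CTSD (0.32) held in every case, with adjusted p-values in the full fit from 1.5e-04 for SQSTM1 to 0.0059 for CTSD. In limma at an unadjusted p under 0.05, 3 members were lower with siLINC01534-2, namely ATG7, BECN1 and ATP6V1A, as were 2351 of the 12203 genes tested. ATG7 passed the adjusted threshold in a fit without a trend on the mean (-0.20, adjusted p = 0.042).

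The difference between the siRNAs was tested directly, as siLINC01534-1 minus siLINC01534-2. It passed for 17 members, 14 higher and 3 lower with siLINC01534-1, while 41.8% of all genes passed, 19.5% higher and 22.3% lower. The difference was positive in 29 of 40 members, with a median of 0.078 against 0.00024 over all genes. GABARAPL1 had the largest positive difference, 0.90 (standard error 0.055, adjusted p = 3.2e-04), followed by CTSD at 0.85 (standard error 0.039, adjusted p = 1.5e-04). GABARAPL1 reached 3.56 times the parent mean with siLINC01534-1 and 1.88 times with siLINC01534-2, and CTSD 2.26 and 1.25 times. GLA (0.46, adjusted p = 0.0063) and GAA (0.43, adjusted p = 0.0011) also differed. For GAA the change with siLINC01534-2 was 0.044 (95% interval -0.058 to 0.15), near parent. ATP6V1A had the largest negative difference, -0.89 (standard error 0.055, adjusted p = 3.2e-04), and was at 0.464 of the parent mean with siLINC01534-1 and at 0.894 with siLINC01534-2.
These calls held with each library left out in turn and those of the other members that differed did not. How often the calls of all genes held was not computed. Fewer members passed with any 1 of the siLINC01534 libraries left out, and the share of all genes that passed fell as well. For the other 23 members the difference did not pass, which does not show that the siRNAs act alike. It was 0.058 for SQSTM1 (95% interval -0.032 to 0.15), 0.020 for WIPI1 (95% interval -0.16 to 0.20), -0.063 for CTSL (95% interval -0.22 to 0.095) and 0.14 for TFE3 (95% interval -0.11 to 0.40). MAP1LC3B was the member of the 2-fold group that leaned towards siLINC01534-2, by -0.21 (95% interval -0.40 to -0.031), without passing (adjusted p = 0.064), though it passed without parent replicate 1 (adjusted p = 0.026) or parent replicate 2 (adjusted p = 0.025).

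**Figure D3:**
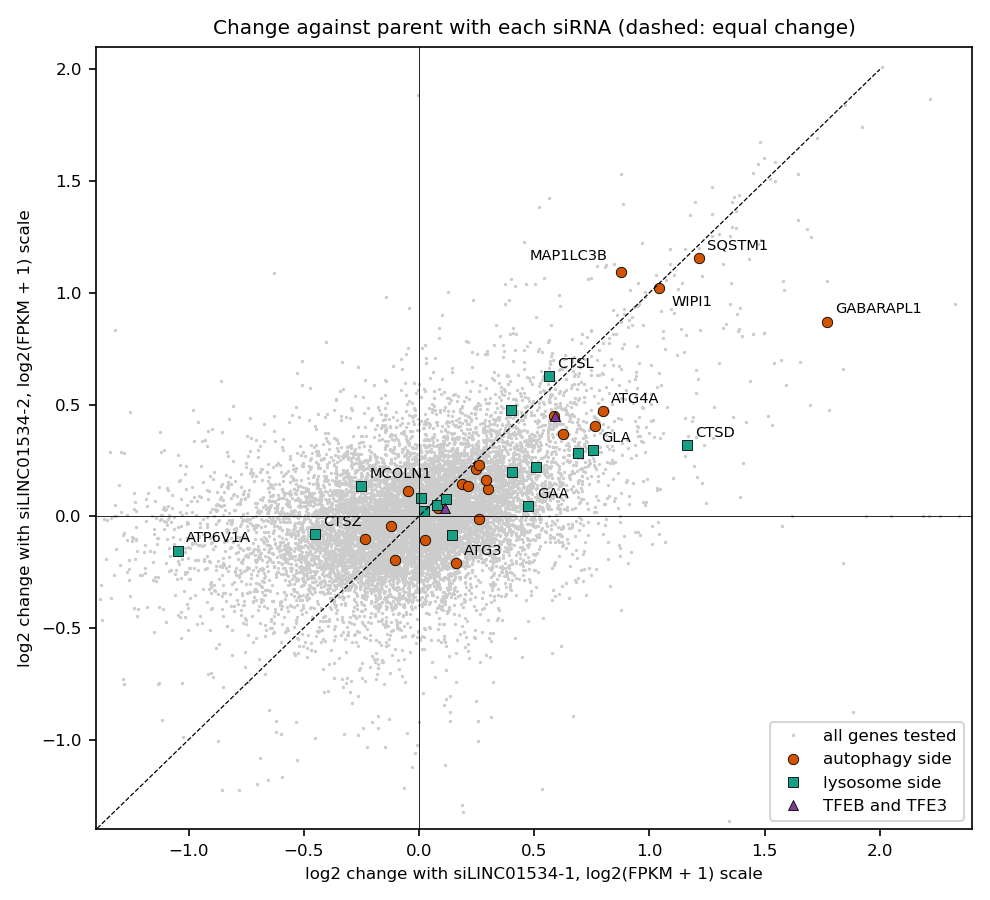
Log2 change against parent with siLINC01534-1 (horizontal) and siLINC01534-2 (vertical), both from the same parent libraries; grey points are all genes tested within the axes, coloured points the members, and the dashed line marks equal change. SQSTM1 and WIPI1 lie close to the line, GABARAPL1 at 1.77 and 0.87 and CTSD at 1.16 and 0.32 lie below it, and ATP6V1A at -1.05 and -0.15 lies far to the left.

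Further genes of the same pathways, listed from textbook knowledge, were read in the same fit, in which 17.1% of all genes rose and 20.1% fell. Of 25 tested genes of other autophagy machinery, 9 rose and 2 fell, with a median of 0.17. RB1CC1, the scaffold of the ULK1 complex, was at 7.18 and 6.15 in the parent libraries, 11.7 and 11.6 under siLINC01534-1 and 9.97 and 10.7 under siLINC01534-2, and rose by 0.64 (adjusted p = 0.0019). WDR45, a relative of WIPI1, rose by 0.63 (adjusted p = 0.0015), and RUBCN (listed as KIAA0226), an inhibitor of autophagosome maturation, by 0.52 (adjusted p = 0.0027). Both an activator and an inhibitor of the pathway were thus among the largest increases.
Of 17 other receptors, 6 rose and 1 fell, with a median of 0.071. OPTN, a receptor for mitochondria and bacteria, had an FPKM of 3.95 and 4.002 for parent, against 10.1 and 9.14 for siLINC01534-1 and 9.97 and 9.81 for siLINC01534-2, a change of 1.11 (standard error 0.056, adjusted p = 2.6e-04) beside the 1.19 of SQSTM1. CCPG1, a receptor for the endoplasmic reticulum, was low, at 1.35 and 0.877 (parent), 3.74 and 2.43 (siLINC01534-1) and 2.23 and 1.90 (siLINC01534-2), and rose by 0.74 (adjusted p = 0.022). CALCOCO2 rose by 0.53 (adjusted p = 0.0017).
On the lysosomal side, 31 other hydrolases and cofactors gave 10 increases and 4 decreases, with a median of 0.15. PSAP, the precursor of the saposins that help to degrade sphingolipids, was the most abundant of those named, at 192 and 185 in the parent libraries, 335 and 341 under siLINC01534-1 and 227 and 236 under siLINC01534-2, and rose by 0.57 (adjusted p = 3.4e-04). IDUA, which degrades glycosaminoglycans, rose by 0.46 (adjusted p = 0.014). Of 21 other membrane and transport genes 6 rose and 3 fell, with a median of 0.065. LAMP3 rose by 0.71 (adjusted p = 0.020) from 0.599 and 0.917 FPKM in parent, and NPC1, the cholesterol exporter of the lysosome, by 0.65 (adjusted p = 0.0014). SORT1, a sorting receptor for lysosomal enzymes, fell by 0.61 (adjusted p = 0.0029), from 6.82 and 7.12 FPKM in parent to 3.54 and 2.97 with siLINC01534-1 and 5.38 and 5.53 with siLINC01534-2.
Among 12 other pump genes 2 rose and 1 fell, with a median of 0.085, so that the share that rose was near that of all genes. ATP6V1C1, a subunit of the same cytosolic sector as ATP6V1A, was at 24.2 and 24.99 for parent, against 15.8 and 15.3 for siLINC01534-1 and 23.6 and 23.4 for siLINC01534-2. It fell by 0.35 (adjusted p = 0.0018), and, like ATP6V1A, was lowest with siLINC01534-1. ATP6V1G1 and ATP6AP2 rose by 0.37 (adjusted p = 0.0025) and 0.34 (adjusted p = 0.0060). Of 20 regulators of mTORC1 and of the TFEB family 3 rose and 4 fell, with a median of 0.032, both near the shares over all genes, so that the counts are no result about this list. MITF, a relative of TFEB, rose by 0.41 (adjusted p = 0.0495) from 0.965 and 0.676 FPKM in parent. MLST8, a subunit of mTORC1, fell by 0.37 (adjusted p = 0.0019), and RRAGC, a GTPase that recruits mTORC1 to the lysosome, rose by 0.29 (adjusted p = 0.0074). Of the genes named from these lists, CCPG1, IDUA, SORT1, ATP6V1C1, MITF and RRAGC did not pass in limma with siLINC01534-2 alone (adjusted p from 0.057 for SORT1 to 0.33 for ATP6V1C1).

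**Figure D4:**
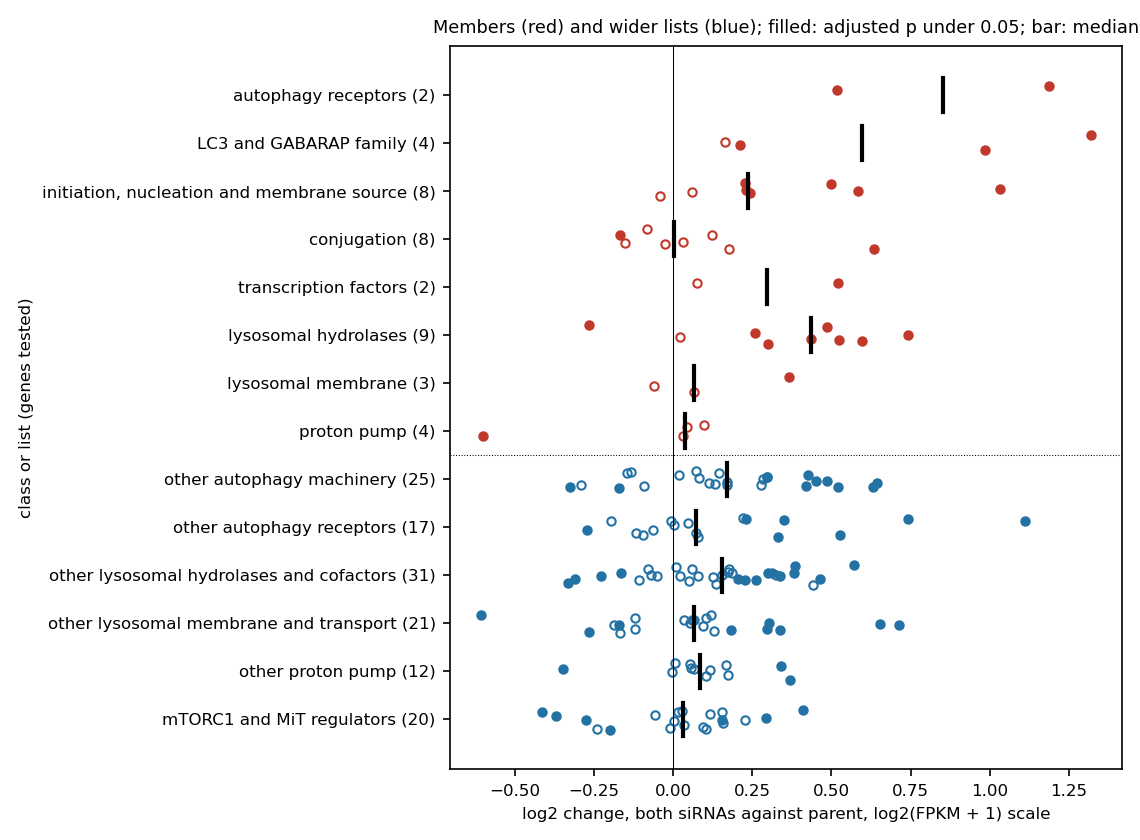
Log2 change for both siRNAs against parent (horizontal) of every tested gene in the 8 classes of members (red) and 6 wider lists (blue), with the number of genes in brackets; filled points passed the threshold and black bars are medians. Among the 8 member classes the medians of the 2 receptors, the LC3 and GABARAP family and the hydrolases lie furthest to the right, those of conjugation and pump genes lie near 0, and those of the 6 wider lists lie between 0.032 and 0.17.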

How the data were processed

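RNA of HCT116 cells was sequenced in 6 libraries, 2 per group by the labels. The methods speak of triplicate cultures, and nothing states that the libraries came from separate cultures. The authors deposited 1 table per library with FPKM values per gene symbol, which were not counts. Per the submitters' processing notes and the methods, TopHat2 2.0.13, Bowtie2 2.2.3, SAMtools 0.1.19 and Cufflinks 2.2.1 were used with the hg19 build. The annotation and the strand setting of the counting are not given in the sources used here. FPKM keeps no read totals, so depth was estimated from the value steps of 505 low genes.

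Here log2(FPKM + 1) was compared with limma 3.58.1 (R 4.3.3, lmFit and eBayes with a trend, 1 mean per group over all 6 libraries, two-sided). Genes with a mean of at least 1 FPKM were kept, and p-values were adjusted over 12203 genes by the Benjamini-Hochberg method. A pseudocount of 1 understates the change of low genes. On simulated data for both siRNAs against parent, with 200 of 12203 genes changed by 1 on the log2 scale, 187 of the changed genes and 8 unchanged genes were called. Every changed gene had that size, the siRNAs did not differ, and the spread was taken from these libraries. Calls of smaller changes were therefore not tested. Intervals cover 95%. Gene positions and exon overlaps were taken from a GENCODE annotation of GRCh37, and promoters from RefSeq on GRCh38.p14, whose coordinates were not mixed. Python 3.11.15, pandas 2.3.3, numpy 2.4.6 and matplotlib 3.10.9 were used otherwise.

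The members and the wider lists were chosen with earlier results of these data known. FPKM in every library was given for 18 members chosen by role, for 13 others past the threshold whose libraries did not overlap parent, and for 3 others that differed between the siRNAs, GABARAPL2 and WIPI2 being added after their values were seen. From each wider list the 3 largest changes past the threshold without overlap were named, of which 1 is not reported here. Pseudocounts, filters, centring, quantile normalization, a replicate block, a fit without trend, pooling of the siRNAs and leaving out each library were tried for the members. Calls of single genes from the wider lists were not examined in this way.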

Additional observations from a re-analysis of the deposited data

Results flagged for a closer look

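The change against parent differed between the siRNAs for 17 of the 40 members, by the limma test of siLINC01534-1 against siLINC01534-2 itself, with values given as the log2 change with siLINC01534-1 minus that with siLINC01534-2. Among all genes tested 41.8% differed, near the share of the members, so that the count is no result about the members. By direction, 14 members were higher and 3 lower with siLINC01534-1, against 19.5% and 22.3% of all genes.

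Among autophagy genes, GABARAPL1 (0.90, adjusted p = 3.2e-04) changed by 1.77 with siLINC01534-1 and 0.87 with siLINC01534-2. Smaller positive differences were found for ATG3 (0.37, adjusted p = 0.024), ULK1 (0.36, adjusted p = 0.033), ATG4A (0.33, adjusted p = 0.020), ATG13 (0.26, adjusted p = 0.016), GABARAP (0.18, adjusted p = 0.015) and BECN1 (0.13, adjusted p = 0.044). For ATG3 and BECN1 the changes had opposite signs, 0.16 with siLINC01534-1 and -0.21 with siLINC01534-2 for ATG3 and 0.027 with siLINC01534-1 and -0.11 with siLINC01534-2 for BECN1.

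Among lysosomal genes, the positive differences were those of CTSD (0.85, adjusted p = 1.5e-04), GLA (0.46, adjusted p = 0.0063), GAA (0.43, adjusted p = 0.0011), HEXA (0.41, adjusted p = 0.016), LAMP2 (0.29, adjusted p = 0.012), ATP6V1H (0.23, adjusted p = 0.012) and CTSA (0.21, adjusted p = 0.016). Negative differences were found for ATP6V1A (-0.89, adjusted p = 3.2e-04), MCOLN1 (-0.39, adjusted p = 0.011) and CTSZ (-0.37, adjusted p = 0.018). The changes of MCOLN1 were -0.25 with siLINC01534-1 and 0.14 with siLINC01534-2, and those of ATP6V1H 0.14 with siLINC01534-1 and -0.084 with siLINC01534-2, again of opposite sign. On leaving out single libraries, the differences of GABARAPL1, CTSD, GLA, GAA and ATP6V1A stayed past the threshold and the others did not in at least 1 case. Their cause was not tested.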

How the results depend on the processing

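Over all named members, comparisons and alternatives, 1680 values kept their direction and side of the threshold, 178 lost the threshold, 18 gained it and 20 changed sign. Those 20 were past the threshold neither before nor after. On quantile normalization they were BECN1 (0.0055) and ATG3 (0.036) for both siRNAs and CTSB (0.066) between the siRNAs, and on median centring CTSB (0.015) between the siRNAs. The other 16 came with a library left out, when the log2 change ran for both siRNAs against parent in CTSB from -0.012 to 0.056, ATG5 from -0.028 to 0.094, ATP6V1H from -0.0037 to 0.064 and ATG3 from -0.091 to 0.041, with siLINC01534-1 in ATG5 from -0.11 to 0.015 and CTSB from -0.013 to 0.055, with siLINC01534-2 in CTSB from -0.010 to 0.058, CTSZ from -0.19 to 0.033 and TFEB from -0.072 to 0.14, and between the siRNAs in CTSB from -0.0080 to 0.0029, WIPI1 from -0.063 to 0.10, NEU1 from -0.17 to 0.0096, TFEB from -0.030 to 0.19 and ATG9A from -0.038 to 0.097. For both siRNAs the calls of ATG14, ATG2A and CTSZ were also lost without a filter (adjusted p = 0.094, 0.059 and 0.069 from limma). Without each library in turn, the members past the threshold numbered 17 to 22 for both siRNAs, 19 to 24 for siLINC01534-1, 8 to 11 for siLINC01534-2 and 8 to 16 for the siRNAs against each other, and 3 to 4 passed 2-fold. The median log2 change then ran, for autophagy and lysosome members, from 0.19 to 0.24 and 0.15 to 0.22 for both siRNAs, from 0.25 to 0.28 and 0.23 to 0.28 for siLINC01534-1, from 0.15 to 0.20 and 0.085 to 0.15 for siLINC01534-2, and from 0.078 to 0.11 and 0.023 to 0.046 between the siRNAs. The autophagy median with siLINC01534-1 was 0.30 and 0.28 at pseudocounts of 0.1 and 0.5, and with siLINC01534-2 it was 0.19 among genes of at least 5 FPKM. Quantile normalization gave lysosome medians of 0.21 for both siRNAs, 0.31 for siLINC01534-1 and 0.096 between the siRNAs. With the siRNAs as 1 group 5 members passed, against 2.96% of all genes. Against the same parent libraries, 2 members, SQSTM1 and WIPI1, passed 2-fold with each siRNA, and the cause was not tested. The share of all genes that did so was not computed. With the replicate block 21, 24, 11 and 17 members passed in the 4 comparisons, against 31.9%, 41.9%, 16.3% and 36.4% of all genes. Same-numbered libraries deviated together with r of 0.11, 0.027 and -0.046 over 12203 genes, so the numbers were not taken as pairs. Depth limits the low members, 5 of which were under 5 FPKM in parent.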
